A study of Mus musculus with 10 samples.

Results

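The 10 genes of amino acid breakdown described here were followed in cardiac endothelial cells (cardiac ECs) of mice on a control or a ketogenic diet. Of the 46983 genes in the count table, the 10 were Bcat2, Bckdha, Bckdhb, Dbt, Bckdk, Ivd, Mccc1, Hibch and Hibadh, which belong to the breakdown of the branched-chain amino acids, and Abat, the GABA transaminase. They were named in a list and found by their Ensembl gene identifiers. Abat was chosen by its log2 fold change between the diets in an earlier analysis of the same libraries, and the rest by their place in the pathway. The contrast is therefore given for the 10 genes as a description, and where the text counts a gene of the 10 as called, the call is not used as support. All 10 passed the filter on low counts, as did 15949 genes in all.

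The mice were wild type C57BL/6J males, aged 8 weeks when the diets began. The control diet, with 11.6 kcal% fat, was given to 5 mice, and to 5 others the ketogenic diet, with 89.5 kcal% fat, both for 14 days. Both diets held nearly the same share of energy as protein, the dietary source of the branched-chain amino acids. Hearts were dissociated, CD31+ cells were taken with antibody-coated magnetic beads, and polyadenylated RNA was sequenced, 1 library for each mouse. The libraries held 10885154 to 12710861 counted reads, with medians of 11285659 on the control and 11837379 on the ketogenic diet (p = 0.230, two-sided exact permutation test). Endothelial markers were high in every library, with a summed level of 4839 to 5361 CPM (reads scaled to a fixed library total) over 10 genes. The libraries also held smooth muscle and pericyte markers, at 2438 to 2711 CPM over 8 genes, and cardiomyocyte markers, at 656 to 1029 CPM over 12 genes. In such bulk RNA, fewer cells of a type and less RNA per cell cannot be told apart.

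Leucine, isoleucine and valine are broken down in mitochondria along a shared opening route. A transaminase, BCAT2 outside the brain, removes the amino group, and the branched-chain ketoacid dehydrogenase complex then makes the irreversible step to acyl-CoA. The complex is built of an E1 component of BCKDHA and BCKDHB, an E2 core of DBT and an E3 component, DLD, that it shares with other dehydrogenases. Its kinase BCKDK switches it off by phosphorylating BCKDHA, and the phosphatase PPM1K switches it on. Beyond this step the routes part: IVD and MCCC1 act on leucine, and HIBCH and HIBADH on valine. ABAT takes the amino group from GABA and beta-alanine, and also acts on the product that follows HIBADH in the valine route.

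All of the genes were detected in every mouse. On the RPKM scale, which divides reads by gene length and library size and so allows genes to be compared, Bckdk had the highest level of the 10 in control mice, at 26.7 ± 1.33 RPKM (mean ± SD, n = 5, as for all values below). Bcat2 followed at 20.4 ± 1.17 RPKM and Ivd at 15.6 ± 1.08 RPKM. The level was 10.1 ± 0.809 RPKM for Bckdha and 6.42 ± 0.858 RPKM for Dbt. These first 5 were separated from each other, since no mouse of one gene's range reached that of the next. Hibadh, at 5.14 ± 0.522 RPKM, overlapped in range with Dbt and with Mccc1, which had 4.62 ± 0.249 RPKM. Abat, at 3.56 ± 0.257 RPKM, overlapped with Hibch, at 3.18 ± 0.319 RPKM. Bckdhb lay apart at the bottom, at 1.08 ± 0.287 RPKM. Bcat1, the cytosolic transaminase, had 0 to 8 reads in a mouse, so the transaminase transcript of these cells was almost all Bcat2.

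**Figure D1:**
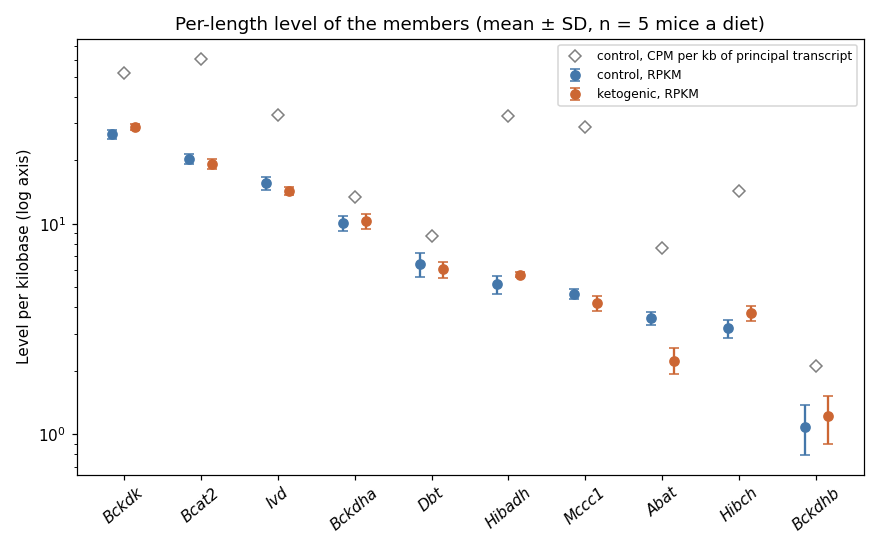
Level per kilobase of each gene on a log axis, as RPKM for both diets (circles, mean ± SD, n = 5 mice) and as CPM per kilobase of the principal transcript in control mice (open diamonds). Bckdk and Bcat2 were highest and Bckdhb lowest on both length scales, while the diamonds of Hibadh and Mccc1 lie far above their RPKM.

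The order in the middle depends on the length used. The lengths behind the RPKM were 15272 bases for Mccc1, 11491 for Hibadh and 9945 for Abat, while their principal GENCODE transcripts have 2455, 1825 and 4636 bases. Per kilobase of the principal transcript, a scale chosen after the values had been seen, Bcat2 came first at 60.9 ± 3.72 CPM per kb and Bckdk second at 52.1 ± 2.59. Hibadh moved up to 32.6 ± 3.26 CPM per kb, close to Ivd at 33.0 ± 2.28, and Mccc1 stood at 28.9 ± 1.62. Abat, at 7.70 ± 0.531 CPM per kb, now came after Hibch and overlapped with Dbt in range, and Bckdhb was again last at 2.10 ± 0.545.

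Bcat2 catalyzes the entry step and lies on chromosome 7 (GRCm38, 45570153 to 45589711, plus strand). Its normalized count, the read count scaled to a common effective library size, was 1318, 1242, 1143, 1336 and 1237 in control mice 1 to 5. In ketogenic mice 1 to 5 it was 1170, 1220, 1146, 1098 and 1257. The ranges overlapped, and only ketogenic mouse 4 lay under every control mouse. The log2 fold change, ketogenic over control, was −0.09 with a standard error of 0.0534. Its exons overlap an antisense gene, 0610005C13Rik, and the library kit does not keep the strand, so reads of both cannot be told apart.

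In the dehydrogenase complex, no subunit separated the diets. Bckdha, the E1 alpha subunit (chromosome 7, 25629946 to 25658981, minus strand), had a normalized count of 296 ± 23.3 in control and 299 ± 24.8 in ketogenic mice. Its log2 fold change of 0.01 (standard error 0.0840) turned to −0.0027 with upper quartile scaling, so no direction can be given. Exons of B3gnt8 on the other strand overlap Bckdha, at a mean of 276 reads for B3gnt8. Bckdhb, the E1 beta subunit (chromosome 9, 83925145 to 84124240, plus strand), had 28 to 55 reads in a mouse. Its normalized count of 35.9 ± 9.33 in control and 39.8 ± 10.2 in ketogenic mice had the widest relative spread of the 10 genes, with a coefficient of variation of 26.0% in control mice. One mouse in each diet stood high for Bckdhb, control mouse 2 at 52.4 and ketogenic mouse 2 at 56.5, while the other 8 lay between 29.5 and 42.8. The log2 fold change of Bckdhb was 0.14 with a standard error of 0.223, and without ketogenic mouse 2 it was −0.01. Dbt, the E2 core (chromosome 3, 116513070 to 116549981, plus strand), had 337 ± 46.3 in control and 316 ± 28.0 in ketogenic mice, or −0.09 on the log2 scale (standard error 0.104).

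The E1 subunits pair in equal numbers in the enzyme, but their transcripts were unequal. Within a mouse, Bckdha RPKM was 9.75 ± 2.24 times that of Bckdhb on the control diet and 8.80 ± 1.89 times on the ketogenic diet. These ratios overlapped between the diets, ranging from 5.95 to 11.3 in control and from 6.44 to 11.4 in ketogenic mice. Per kilobase of the principal transcript, the control means were 13.4 CPM per kb for Bckdha and 2.10 for Bckdhb. The size of this and of later RPKM ratios between genes thus depends on the lengths used, while their contrast between the diets does not. Dld, the E3 component, was at 83.8 ± 2.16 RPKM in control mice, 8.36 ± 0.771 times Bckdha. Its log2 fold change was 0.00 (standard error 0.0367), but its reads came to 1.10 per base of gene length, where the counts of all genes stop near 2.

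Bckdk, the kinase that restrains the complex (chromosome 7, 127904082 to 127910221, plus strand), had a normalized count of 2086, 1948, 2038, 2019 and 2224 in control mice 1 to 5. In ketogenic mice 1 to 5 it was 2149, 2328, 2212, 2196 and 2142. Ketogenic mouse 2 was above every control mouse, and control mouse 5 was above the other 4 ketogenic mice. This gave a log2 fold change of 0.10 with a standard error of 0.0408. The log2 fold change of the opposing phosphatase Ppm1k was 0.13 (standard error 0.102, edgeR adjusted p = 0.545). The kinase to phosphatase ratio in RPKM spanned 1.79 to 2.45 in control and 1.84 to 2.51 in ketogenic mice. Against its substrate Bckdha, Bckdk stood at 2.65 ± 0.170 and 2.81 ± 0.177 times in RPKM. Both ratios overlapped between the diets.

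On the leucine route, both genes of the list had lower means on the ketogenic diet, with overlapping mice. Ivd, isovaleryl-CoA dehydrogenase (chromosome 2, 118861954 to 118882909, plus strand), had normalized counts of 1362, 1292, 1557, 1409 and 1404 in control mice 1 to 5. The ketogenic mice 1 to 5 had 1194, 1347, 1323, 1257 and 1281. In all, 3 ketogenic mice lay under every control mouse, and the log2 fold change was −0.13 with a standard error of 0.0534. Mccc1, the biotin-carrying subunit of methylcrotonyl-CoA carboxylase (chromosome 3, 35959312 to 36000678, minus strand), had 853, 747, 858, 826 and 848 in control mice 1 to 5. Its counts in ketogenic mice 1 to 5 were 799, 658, 733, 718 and 803. Here too, 3 ketogenic mice lay under every control mouse, and control mouse 2 was low among its own group. For Mccc1 the log2 fold change was −0.15 (standard error 0.0657). Its exons overlap the antisense gene Mccc1os, which had a mean of 14.3 reads. Mccc2, the partner subunit, differed by −0.08 in log2 (standard error 0.0865, edgeR adjusted p = 0.654).

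On the valine route, Hibch and Hibadh had higher means on the ketogenic diet, with overlapping mice. Hibch, which releases 3-hydroxyisobutyrate from its CoA ester (chromosome 1, 52844929 to 52920986, plus strand), had normalized counts of 327, 276, 285, 286 and 346 in control mice 1 to 5. In ketogenic mice 1 to 5 they were 332, 335, 367, 352 and 400. Of the ketogenic mice, 3 lay above every control mouse, and the log2 fold change was 0.23 with a standard error of 0.0871. Hibadh, the dehydrogenase that follows (chromosome 6, 52546228 to 52640389, minus strand), had 595, 753, 733, 736 and 643 in control mice 1 to 5. It had 787, 764, 779, 728 and 767 in ketogenic mice 1 to 5. Of the ketogenic mice, 4 were above every control mouse, and they were the tighter group, with a coefficient of variation of 2.97% against 10.0%. The log2 fold change of Hibadh was 0.14 (standard error 0.0688). Aldh6a1, which completes the valine route, had −0.01 (standard error 0.0841, edgeR adjusted p = 0.962).

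Abat stood apart from the other 9 genes. It lies on chromosome 16 (GRCm38, 8513429 to 8621568, plus strand), and no other annotated gene overlaps it. Its normalized count was 368, 422, 425, 414 and 446 in control mice 1 to 5. In ketogenic mice 1 to 5 it was 307, 242, 229, 288 and 227. All 5 ketogenic mice were below all 5 control mice, with a gap between 307 and 368. The means were 415 ± 28.6 and 258 ± 36.6, a level 37.8% lower on the ketogenic diet, and the log2 fold change was −0.68 with a standard error of 0.0995. On the RPKM scale the mean was 3.56 ± 0.257 in control and 2.24 ± 0.315 in ketogenic mice. On that scale the mean of Abat was under that of Hibch on the ketogenic diet only. Per kilobase of the principal transcript it was under that of Hibch on both diets.

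**Figure D2:**
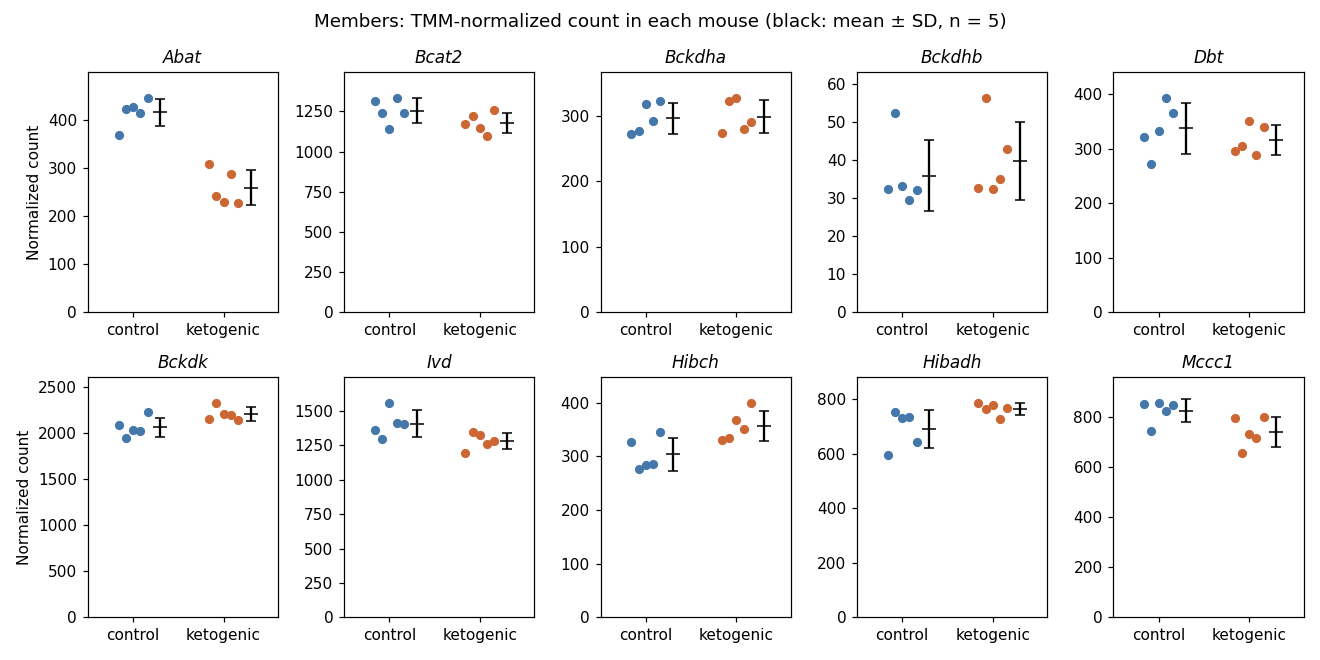
Normalized count (linear axes from 0) of each of the 10 genes in every mouse, with control mice in blue, ketogenic mice in orange and the mean ± SD of 5 mice in black. Only Abat has no overlap between the diets, with 227 to 307 on the ketogenic diet and 368 to 446 on the control diet.

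Counted over the list, 1 of the 10 genes, Abat, had an adjusted p under 0.05 in the edgeR fit over all 15949 genes, where 1.34% of genes did in either direction and 0.527% in the lower direction. Abat was also the 1 gene of 10 without overlap between the diets, against 4.34% of all genes, and 1.94% in the lower direction. As Abat was picked for this contrast, nothing is read from these counts. Of the other 9, 5 had values above 0 and 4 below, and 0 were called. The median log2 fold change of the 10 was −0.04, beside −0.01 over all genes tested, and without Abat it was 0.01.

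The genes around the list were read from the same fit. These were 41 further genes of branched-chain amino acid transport, breakdown, propionyl-CoA handling, GABA and beta-alanine metabolism and their regulators. Of the 41, 33 passed the filter and 2 were called, both higher on the ketogenic diet. Over all genes, 1.34% were called in either direction and 0.809% higher. The lists were chosen with earlier results of these data known, so these counts are a description. Both called genes were on the list for GABA and beta-alanine metabolism, of which 7 of 13 genes passed the filter. A place on this list does not show that a change concerns GABA, and other roles of these genes were not examined. Aldh9a1, an aldehyde dehydrogenase that can make GABA from 4-aminobutanal, had normalized counts of 1634, 1973, 1865, 1910 and 1914 in control mice 1 to 5. In ketogenic mice 1 to 5 it had 2499, 2607, 2777, 2520 and 2532. The groups did not overlap, as for 2.4% of all genes in the higher direction, and Aldh9a1 rose by 0.48 in log2 (standard error 0.0513, edgeR adjusted p = 0.0013). Slc6a6, the transporter of taurine and beta-alanine, had 7818, 7734, 7668, 7300 and 8225 in control mice 1 to 5. Its counts in ketogenic mice 1 to 5 were 8938, 9678, 9063, 8797 and 8171. All but ketogenic mouse 5 were above every control mouse, and Slc6a6 rose by 0.20 (standard error 0.0434, edgeR adjusted p = 0.0442). As counts stop near 2 reads per base of gene length, the rises of Aldh9a1 and Slc6a6 can be understated. With counts corrected for read start positions, they were 0.55 for Aldh9a1 and 0.27 for Slc6a6. The call for Slc6a6 was lost with upper quartile scaling (adjusted p = 0.0771), with the replicate block (0.0995), with the cardiomyocyte marker score (0.317) and in 7 of the 10 fits that left out 1 mouse: without control mouse 1 (adjusted p = 0.0824), 2 (0.0908), 3 (0.0983) or 4 (0.0821), or ketogenic mouse 1 (0.0777), 3 (0.0948) or 4 (0.0822).

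Within a mouse, the RPKM of Aldh9a1 was 9.60 ± 0.338 times that of Abat on the control diet and 21.9 ± 3.61 times on the ketogenic diet. The ratio spanned 9.21 to 10.0 over the control mice, a narrow range, and 17.5 to 26.0 over the ketogenic mice. This ratio carries the value by which Abat was chosen, so it is a description.

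Gad1, which makes GABA from glutamate, was low, with normalized counts of 60.5, 102, 91.1, 177 and 57.3 in control mice 1 to 5. In ketogenic mice 1 to 5 they were 70.1, 5.23, 43.2, 22.4 and 27.3. All but ketogenic mouse 1 lay under every control mouse, but the spread was wide in both groups. The log2 fold change of Gad1 was −1.53 (standard error 0.485, edgeR adjusted p = 0.136), which passed the threshold in DESeq2 (adjusted p = 0.0312). Gad2, the other GABA synthase, had 0 to 8 reads in a mouse and was not tested. Aldh5a1, which acts after Abat on succinic semialdehyde and is named here after its values were seen, had 27.9 ± 5.33 in control and 32.3 ± 13.0 in ketogenic mice, a log2 difference of 0.21 (standard error 0.277, edgeR adjusted p = 0.730).

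**Figure D3:**
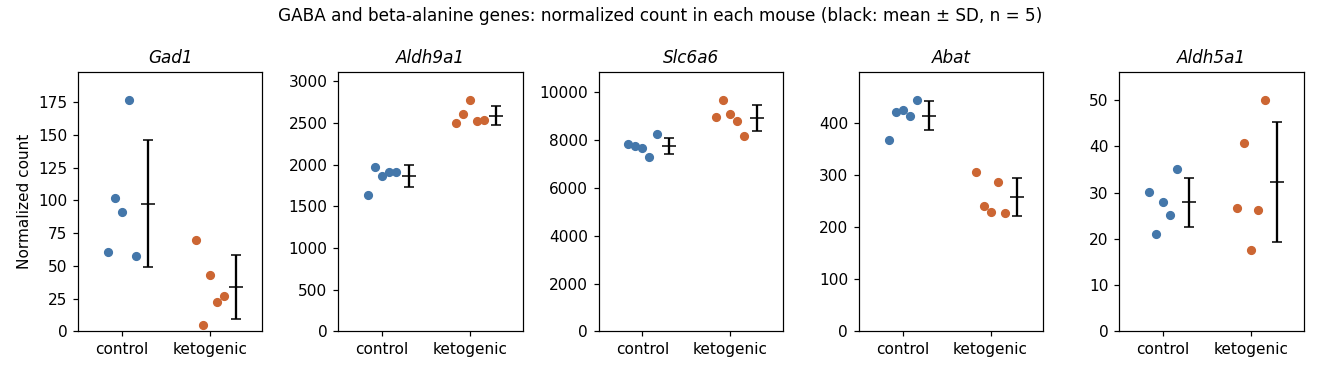
Normalized count (linear axes from 0) of genes that can make GABA (Gad1, Aldh9a1), carry beta-alanine (Slc6a6) or break GABA down (Abat, Aldh5a1) in every mouse, with control mice in blue, ketogenic mice in orange and the mean ± SD of 5 mice in black. Aldh9a1 lies higher and Abat lower in all 5 ketogenic mice, while Gad1 and Aldh5a1 overlap between the diets.

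In the GABA and beta-alanine list, 3 of the 7 tested genes had log2 fold changes above 0 and 4 below. An unadjusted edgeR p under 0.05 was found for 4 of these 7, beside 17.8% of all genes. None of the other lists held a gene called by edgeR. The complex's other tested genes (Dld and Ppm1k) gave 0 of 2, and the other leucine genes 0 of 3, with 1 unadjusted p under 0.05. In transport, 0 of 6 tested genes passed the edgeR threshold, although 2, Slc3a2 and Slc43a2, had an unadjusted p under 0.05, as did 17.8% of all genes. Slc3a2, the heavy chain of the amino acid exchangers at the cell surface, differed by −0.11 in log2 (standard error 0.0405, edgeR adjusted p = 0.182). Slc43a2, a facilitative carrier of these amino acids, named after its values were seen, had 0.50 (standard error 0.178, adjusted p = 0.175). Slc25a44, the mitochondrial carrier of branched-chain amino acids, had 0.15 (standard error 0.0688, adjusted p = 0.281). In the isoleucine and valine routes 0 of 6 passed, with no unadjusted p under 0.05, and Acat1, the thiolase that also acts on ketone bodies, had 0.00 (standard error 0.0385, adjusted p = 0.967). In propionyl-CoA handling 0 of 6 passed, with 1 unadjusted p under 0.05, that of Pccb. Pccb, the beta subunit of propionyl-CoA carboxylase, also named after its values were seen, had 556 ± 33.5 in control and 642 ± 67.7 in ketogenic mice. All 5 ketogenic mice were above all control mice for Pccb, as for 2.4% of all genes, with the nearest mice at 593 and 586. The difference was 0.21 in log2 (standard error 0.0766, edgeR adjusted p = 0.184). Mmut, the methylmalonyl-CoA mutase, had −0.05 (standard error 0.0670, adjusted p = 0.759) and Mcee, the epimerase before it, 0.14 (standard error 0.0742, adjusted p = 0.337). Among the regulators, 0 of 3 tested passed, though each had an unadjusted p under 0.05. Klf15, a transcription factor that promotes breakdown of these amino acids, had −0.76 (standard error 0.339, adjusted p = 0.264), and the coactivator Ppargc1a had 0.52 (standard error 0.153, adjusted p = 0.112). DESeq2 called 1 further gene of the 33, Gad1.

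**Figure D4:**
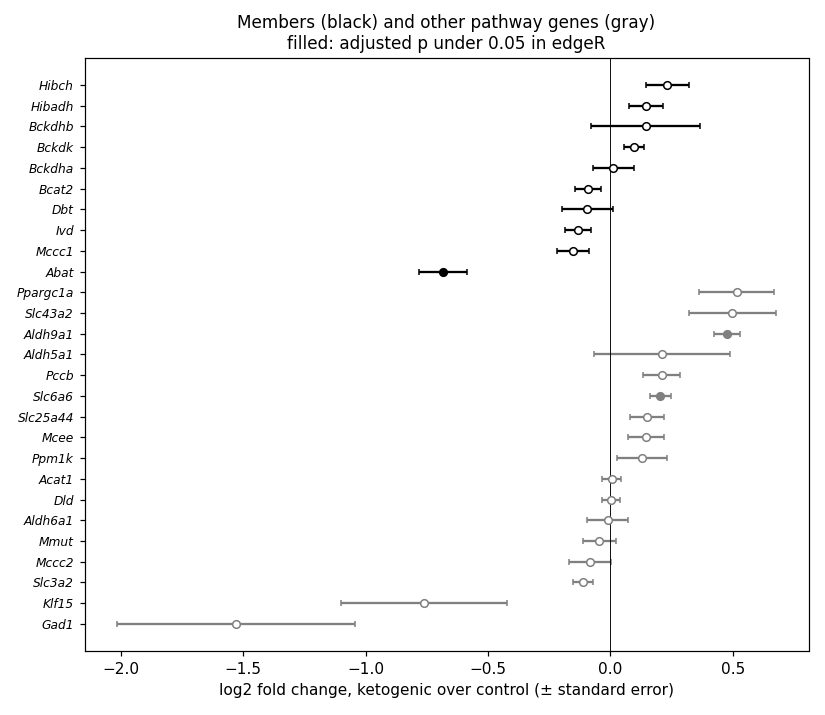
Log2 fold change, ketogenic over control, with its standard error for the 10 genes (black) and the 17 further pathway genes named in the text (gray), filled where the edgeR adjusted p was under 0.05. Abat lies apart from the other black points at −0.68, and Aldh9a1 at 0.48 and Slc6a6 at 0.20 are the filled gray points.

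Mouse-to-mouse variation within a diet, which does not use the contrast, was described by correlating log2 CPM after each diet's mean had been removed, over the 10 mice. Between Abat and the other 9 genes the values were mostly below 0, with a median Pearson r of −0.26 and a range of −0.51 (Bcat2) to 0.19 (Hibadh). The remaining 36 pairs had a median r of 0.05. Bckdha and Ivd were the most alike at 0.79, followed by Bckdha with its kinase Bckdk at 0.62 and Bckdha with Dbt at 0.53. Hibch and Hibadh, neighbours on the valine route, ran against each other at −0.68. The lowest value, −0.70 for Bckdhb with Mccc1, had a Spearman rho of −0.20, and in both genes control mouse 2 lay far from its group. Among the 5 genes most like Abat over all genes were 4632415L05Rik (r = 0.95, rho = 0.98), Mtss1l (0.92, rho = 0.93), Ppp2r5e (0.90, rho = 0.87) and Cnot6 (0.88, rho = 0.92). None of these 5 was called between the diets, with log2 fold changes of 0.11 to 0.23. The points share their libraries, and 10 mice are few for a search over 15949 genes.

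Near Abat, 5 of the 15 annotated genes within 200 kb passed the filter and 0 were called in edgeR, with 1 at an unadjusted p under 0.05. That gene was Pmm2, which differed by −0.11 in log2 (standard error 0.0494, adjusted p = 0.260). Tmem186 had 0.09, Mettl22 0.15, Carhsp1 0.06 and Usp7 −0.11, with adjusted p from 0.352 to 0.744. The lower level of Abat was not shared by its tested neighbours at a comparable size.

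The levels of other cells' markers are set beside these values, with 0.05 as the threshold that no list's adjusted p passed. Cardiomyocyte markers, from cells rich in mitochondrial enzymes, summed to 656 to 828 CPM in control and 744 to 1029 CPM in ketogenic mice. The ketogenic mean was 1.23 times the control mean (two-sided exact permutation test, p = 0.0159, 0.0635 adjusted over 8 lists, where the smallest possible p was 0.00794). All 11 tested markers had log2 fold changes above 0, from 0.10 for Tnnt2 to 0.77 for Ryr2, and edgeR called 0 of them, with 8 at an unadjusted p under 0.05. Lymphocyte markers summed to 218 to 319 CPM in control and 168 to 208 CPM in ketogenic mice, without overlap (exact permutation test, p = 0.00794, adjusted p = 0.0635). This is the smallest possible p, and 1 list of the 8 that reaches it alone cannot pass 0.05 after adjustment. The adjusted values therefore do not show that the marker levels were alike. Their log2 fold changes ran from −0.53 for Ms4a1 to 0.11 for Cd3e, and edgeR called 1 of 7 tested, Cd79a (−0.46, standard error 0.0825, adjusted p = 0.0221). Macrophage markers ran from 152 to 611 CPM in control and 126 to 251 CPM in ketogenic mice (exact permutation test, p = 0.127), with Adgre1 at −2.63 and Mrc1 at 0.32 in log2 as the extremes. Control mouse 1 had a normalized count of 2374 for Adgre1, where the other control mice had 25.3 to 613, and without that mouse the value of Adgre1 was −1.12. Adipocyte markers, from another cell rich in these enzymes, were near 0, at no more than 2.81 CPM in sum (exact permutation test, p = 0.627). Summed endothelial (p = 0.278), smooth muscle and pericyte (p = 0.468), fibroblast (p = 0.643) and Schwann cell (p = 0.421) markers gave no p under 0.05 in the same exact permutation test. Several of these markers lay near the limit of about 2 reads per base of gene length, so a difference in their sums can be understated. Over 1 read per base were 3 of 10 endothelial markers (Cdh5 the highest), 4 of 8 of smooth muscle and pericytes (Rgs5 highest at 1.66) and 2 of 8 of fibroblasts (Dcn highest at 1.56). The same held for 2 of 8 macrophage markers (Lyz2 highest at 1.41) and 1 of 12 cardiomyocyte markers (Actc1 at 1.03). Log2 fold changes lay between −0.11 (Egfl7) and 0.13 (Kdr) for endothelial genes, −0.06 (Acta2) and 0.10 (Cnn1) for mural genes, and −0.06 (Col3a1) and 0.43 (Dpt) for fibroblast genes. No marker of any list was at 0 in all 10 mice.

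In a fit that included the cardiomyocyte markers as a score for each mouse, Abat differed by −0.60 in log2 and was no longer called. Its standard error was 0.140 there, beside a log2 fold change of −0.68 and a standard error of 0.0995 without the score. The score itself differed with diet, from −1.29 to 0.24 in control and from −0.50 to 1.53 in ketogenic mice. The fit therefore cannot fully separate diet from score, and a lost call there can reflect lost precision. Aldh9a1 had 0.42 in that fit (standard error 0.0720, unadjusted p = 1.07e-04, edgeR adjusted p = 0.0636), beside 0.48 without the score. Slc6a6 had 0.19 (standard error 0.0642, edgeR adjusted p = 0.317), beside 0.20. Ivd differed by −0.26 in that fit (standard error 0.0578, unadjusted p = 8.66e-04, edgeR adjusted p = 0.155), beside −0.13. The p of Ivd was smaller than that of Abat there (unadjusted p = 0.0012, edgeR adjusted p = 0.162). Dbt had −0.24 (standard error 0.142, edgeR adjusted p = 0.596), beside −0.09. Bckdhb had 0.34 (standard error 0.337, edgeR adjusted p = 0.753), beside 0.14. Smaller in size than without the score were Bcat2 (−0.02), Bckdk (0.06), Hibch (0.20) and Mccc1 (−0.13). Ketogenic mouse 1 had a cardiomyocyte marker sum of 744 CPM, within the control range, and its Abat count of 307 was under that of every control mouse. Control mouse 3 had the highest control sum, 828 CPM, with an Abat count of 425. Among the ketogenic mice, mouse 1 had the lowest marker sum and the highest Abat count. Ketogenic mouse 3 had the highest sum, 1029 CPM, with an Abat count of 229. Ketogenic mouse 5, at 852 CPM, had the lowest count, 227. The part of cardiomyocyte and lymphocyte RNA in the levels of Abat and of the other genes was not tested.

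**Figure D5:**
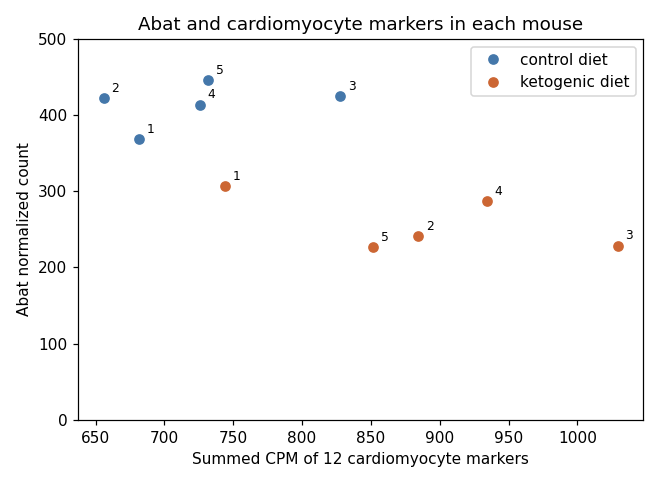
Abat normalized count (linear axis from 0) against the summed CPM of 12 cardiomyocyte markers in each of the 10 mice, numbered by mouse, with control mice in blue and ketogenic mice in orange. Ketogenic mouse 1 and control mouse 3 lie in the stretch of marker sums that both diets share, at Abat counts of 307 and 425. Among the ketogenic mice, mouse 1 has the lowest marker sum and the highest Abat count, and mouse 3 has the highest sum, at an Abat count of 229.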

How the data were processed

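The authors deposited raw read counts per gene and RPKM, with 1 column for each of 10 mice (5 per diet). Libraries were made from 10 ng of RNA with the SMART-Seq v4 kit and read as single 50-base reads. The submitters' processing notes name bcl2fastq 2.17.1.14, STAR 2.3, HTSeq 0.6.0 and mm10. The annotation release and any removal of duplicate reads are not given in the sources used here. The deposited counts stop near 2 reads per base of gene length (highest 2.17), and the 10 genes lie at 0.0194 to 0.356. The authors' RPKM matched the counts divided by 1 fixed length per gene. Gene symbols and positions came from GENCODE M21 (GRCm38), which held 46488 of the 46983 identifiers.

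Counts were scaled by TMM, filtered with filterByExpr and fitted with edgeR 4.0.16 (glmQLFit, glmQLFTest, diet only) in R 4.3.3. Adjusted p-values are Benjamini-Hochberg over all genes tested, called under 0.05. The paper describes the control mice as littermates of the ketogenic mice, but no labels tie a library to a litter or batch. Litter was therefore not part of the main fit. Alternatives were other scalings and filters, DESeq2 1.42.0, limma 3.58.1 (log2 of RPKM plus 1 or plus 0.1), a replicate block, the cardiomyocyte marker score (mean z-score of log2 CPM) as a covariate, each mouse left out, and counts corrected for read start positions, which was chosen after seeing the data.

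The 10 genes and all lists were chosen with earlier results of these data known. Named are the 10 genes, in each pathway list the called genes and the 2 with the highest mean RPKM, the 5 genes most correlated with Abat, up to 6 nearest tested neighbours, and the lowest and highest log2 fold change of a marker list. Others are Bcat1, Gad1, Gad2, Aldh5a1, Slc43a2 and Pccb, chosen after their values were seen. Some genes that this rule names are not reported here.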

Additional observations from a re-analysis of the deposited data

Results flagged for a closer look

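Of 38 groups of 5 mice that were screened, 4 held a mouse far from the others by Dixon's ratio of its gap to the range. Chance flags about 1 in 20 such groups, or 1.9 here. For Bckdhb, control mouse 2 had the highest normalized count of its group, 52.4, where the nearest mouse had 33.1. For Mccc1, the same mouse had the lowest, 747, where the nearest had 826. Macrophage markers were highest in control mouse 1, at 611 CPM in sum against 255 in the nearest mouse. They were also highest among ketogenic mice in mouse 4, at 251 CPM against 150 in the nearest. Without control mouse 1, the mouse with the high macrophage markers, Abat had a log2 fold change of −0.72, and without ketogenic mouse 4 it had −0.73.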

How the results depend on the processing

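Abat stayed lower on the ketogenic diet in all 21 alternatives, with log2 fold changes from −0.75 to −0.50, and was called in 20 of them. The cardiomyocyte score as a covariate left 0 of the 10 genes and 0 pathway genes called. It left 22 genes in all, 16 of them shared with the 213 called (129 higher, 84 lower). That score differed with diet, so fewer calls there can reflect lost precision. DESeq2 called 815 genes, 211 of them shared. Replicate numbers were not treated as pairs in the main fit, and same-numbered mice had correlations of −0.13 to 0.09. Such low values cannot exclude a litter or batch shared by mice of the same number. With the replicate block, 113 genes were called, 90 of them shared, with Abat among them close to the threshold (edgeR adjusted p = 0.0479). In that fit 1 pathway gene, Aldh9a1, was called, as it was with upper quartile factors. Leaving out 1 mouse gave 86 to 492 genes in all, 1 of the 10 (Abat) each time and 1 to 2 pathway genes. The cause of these shifts was not tested. The median of the 10 moved between −0.05 and −0.01 over the left-out mice. Bckdha changed sign with upper quartile factors (−0.0027), with the cardiomyocyte score (−0.15) and over the left-out mice (−0.018 to 0.045), and Bckdhb over the left-out mice (−0.011 to 0.33). The log2 ratio of summed markers changed sign for fibroblasts (−0.0055 to 0.059) and adipocytes (−1.54 to 0.17). The other 7 of the 10 genes kept their direction in the 21 alternatives. Depth limits Bckdhb most, with 28 to 55 reads.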
